A study of Mus musculus with 16 samples.

Results

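Cell cycle progression genes were followed in neutrophils of septic mice. The group held 38 of the 49315 genes counted in every library, listed by name as genes of S phase and mitosis whose mRNA could mark cycling precursors among the sorted cells, and all 38 were found by symbol. Male mice aged 8 to 12 weeks were labelled wild type (WT) or deficient in integrin αD (αD KO, the product of Itgad), and were studied untreated (0h, the baseline) or at 12 hours (12h) after cecal ligation and puncture (CLP), surgery that causes polymicrobial abdominal sepsis. Ly6G+/CD11b+/CD45.2+ cells were sorted from blood or lung, so that 8 groups were formed by genotype, tissue and time. Each group held 3 libraries, called 1a, 1b and 2, from 2 labelled samples, since sample 1 came with a pair of count files. RNA was converted to full-length cDNA, amplified and sequenced, and values are given as counts per 1000000 (CPM) with TMM normalization, or per kilobase of exon (RPKM) where genes are compared with each other. No label says that the libraries of a group came from separate mice, and no background strain or design of the αD KO allele was given with them.

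A dividing cell licenses its replication origins with the MCM helicase, supplies nucleotides, passes from G1 to S phase under cyclin D and cyclin E kinases and E2F factors, and then enters mitosis under cyclin A and cyclin B kinases. The anaphase-promoting complex ends mitosis by destroying the mitotic cyclins. Neutrophils are made in the bone marrow from granulocyte precursors that divide through the promyelocyte and myelocyte stages, stop dividing, and leave the marrow as mature cells, and sepsis draws younger cells of this lineage into the blood. Many promoters of S phase genes carry E2F sites, and many promoters of mitosis genes carry a cell cycle genes homology region (CHR) close to CCAAT boxes.

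The start regions of 4 members whose mRNA levels are described below are shown to place these motifs, 300 bases each from 250 before to 50 after the start of transcription in RefSeq on GRCm38.p6, read 5′ to 3′ on the strand of the gene. Capitals mark matches, on either strand, to the CHR (TTTGAA), to E2F letters (TTTCGCGC, TTTGGCGC or TTTCCCGC) and to CCAAT. The Mcm6 window lies at chr1:128359656-128359955 (minus strand), that of Cdk2 at chr10:128705002-128705301 (minus strand), that of Cenpa at chr5:30666636-30666935 (plus strand) and that of Cdc20 at chr4:118437294-118437593 (minus strand).
Mcm6: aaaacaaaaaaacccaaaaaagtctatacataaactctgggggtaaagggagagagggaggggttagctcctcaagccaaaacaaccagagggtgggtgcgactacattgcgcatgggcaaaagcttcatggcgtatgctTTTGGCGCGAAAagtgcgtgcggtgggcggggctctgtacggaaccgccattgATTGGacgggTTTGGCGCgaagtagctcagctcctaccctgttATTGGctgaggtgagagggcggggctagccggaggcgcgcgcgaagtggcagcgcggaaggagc
Cdk2: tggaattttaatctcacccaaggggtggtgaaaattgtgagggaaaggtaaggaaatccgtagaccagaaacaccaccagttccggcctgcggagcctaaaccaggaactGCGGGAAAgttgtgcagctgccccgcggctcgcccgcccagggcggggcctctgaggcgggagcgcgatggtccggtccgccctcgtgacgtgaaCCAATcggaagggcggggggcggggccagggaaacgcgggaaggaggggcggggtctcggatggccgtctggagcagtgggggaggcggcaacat
Cenpa: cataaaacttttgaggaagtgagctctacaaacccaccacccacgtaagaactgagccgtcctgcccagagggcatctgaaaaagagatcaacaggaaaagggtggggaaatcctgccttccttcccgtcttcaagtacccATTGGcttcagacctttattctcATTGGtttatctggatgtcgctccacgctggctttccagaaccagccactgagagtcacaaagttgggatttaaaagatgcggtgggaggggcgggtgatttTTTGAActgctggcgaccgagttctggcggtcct
Cdc20: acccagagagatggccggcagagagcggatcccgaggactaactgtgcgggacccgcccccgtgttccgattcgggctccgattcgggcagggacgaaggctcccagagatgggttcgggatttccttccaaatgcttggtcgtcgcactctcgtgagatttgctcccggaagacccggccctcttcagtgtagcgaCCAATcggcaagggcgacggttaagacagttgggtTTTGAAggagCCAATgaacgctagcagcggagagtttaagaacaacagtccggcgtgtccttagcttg

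Mcm6, a subunit of the replicative helicase, held 3 E2F matches, of which the first pair overlap in a single capital run, and 2 CCAAT boxes. Cdk2, the kinase of S phase entry, held 1 E2F match and 1 CCAAT box. Cenpa, the centromere histone, and Cdc20, the activator of the anaphase-promoting complex, each held 1 CHR and 2 CCAAT boxes. Windows were listed for 31 of the 38 members, 33 windows in all because Ccnd3 and Mcm7 had 2 each, and not for Ccnd1, Ccna2, Aurkb, Foxm1, Stmn1, Gmnn and Mcm4. A CHR was found in 39.4% of the 33 windows against 17.9% of all 32851 windows of the same length, E2F letters in 21.2% against 1.84%, and CCAAT in 75.8% against 37.4%. The CHR was held by 8 of the 10 matched genes of the chromosome and spindle machinery, by both genes of mitotic exit and by 2 of 3 drivers of mitosis, but by 1 of 7 licensing genes and by none of the 5 G1 to S drivers or 4 nucleotide genes. E2F letters were held by 5 of the 7 licensing genes, by Cdk2 and by Cdk1. A match is a description of letters, not evidence of binding.

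The targeted gene was examined first. Itgad was between 0.0583 and 3.66 CPM in the 12 WT libraries and between 12.5 and 101.9 CPM in the 12 αD KO libraries, so every library labelled αD KO was above every library labelled WT. This is the opposite of the direction that the labels name, and counts per gene do not separate transcript of a targeted allele from intact transcript. WT and αD KO therefore stand for the labels throughout, and loss of Itgad was not shown by these counts. Library totals ran from 5753476 to 29984954 counts. The neutrophil marker genes S100a8 and S100a9, which encode calprotectin, were at 8852 CPM or more in all 24 libraries, and Ly6g, the marker of the sort, was at 18.4 CPM or more. Libraries 1b stood apart in all 8 groups, as the mean level of 1405 olfactory receptor genes, which belong to sensory neurons of the nose, was 0.0699 to 0.872 RPKM in them and 0.00635 to 0.0873 RPKM in the other 16. Further libraries stood apart. In WT blood at 0h, the highest library held 314 CPM of lung epithelial and endothelial markers, where the median of the group was 34.5 CPM. In αD KO blood at 0h, library 2 held far more mRNA of T and NK cells than the other libraries, as detailed below. In αD KO lung at 0h and at 12h, values ran against the labels: Kif23, a kinesin of cytokinesis, was 105 to 260.2 CPM in the 9 libraries at 0h and 6.82 to 39.5 CPM in the 9 libraries at 12h of the other 3 pairs of groups, but it was 23.7 CPM in the αD KO lung library labelled 0h 2, against 209 and 172 CPM in the αD KO lung libraries labelled 12h 1a and 12h 2. Their labels were kept, and nothing was regrouped. Values without these 3 libraries, a choice made after their levels were seen, are given beside the main results they enter.

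Few counts stood behind most members. Only 6 of the 38 had a median of at least 10 CPM over the 24 libraries. They were Ccnd3, a D-type cyclin of blood cells, Cdk2, Mki67, which encodes the Ki-67 antigen, Mcm4, Pcna, the sliding clamp of DNA polymerase, and Cenpa. Per length, Ccnd3 led with a median of 67.6 RPKM, followed by Cdk2 at 11.3, Pcna at 7.47, Mcm4 at 5.77, Cenpa at 2.80 and Mki67 at 2.22 RPKM. Ccnd3 alone made up 45.0% to 91.6% of the summed CPM of the 38 members. The other 32 members had medians from 0.381 CPM in Ccne1, the cyclin of the G1 to S transition, to 4.11 CPM in Mcm7, and 13 of them were below 1 CPM. The core mitotic kinase Cdk1 had a median of 0.404 CPM, its cyclins Ccnb1 and Ccna2 0.531 and 0.515 CPM, and the checkpoint kinase Bub1 0.481 CPM. A count of 0 was listed for 9 members in at least 1 library, at most in 3 libraries for Bub1, and a count of 0 allows up to 3 counts, which were 0.109 to 0.270 CPM depending on the library. Amplified reads without molecular identifiers are not independent molecules, so this floor covers counting error only. In these bulk samples, fewer cells of a type and less RNA per cell cannot be told apart.

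**Figure D1:**
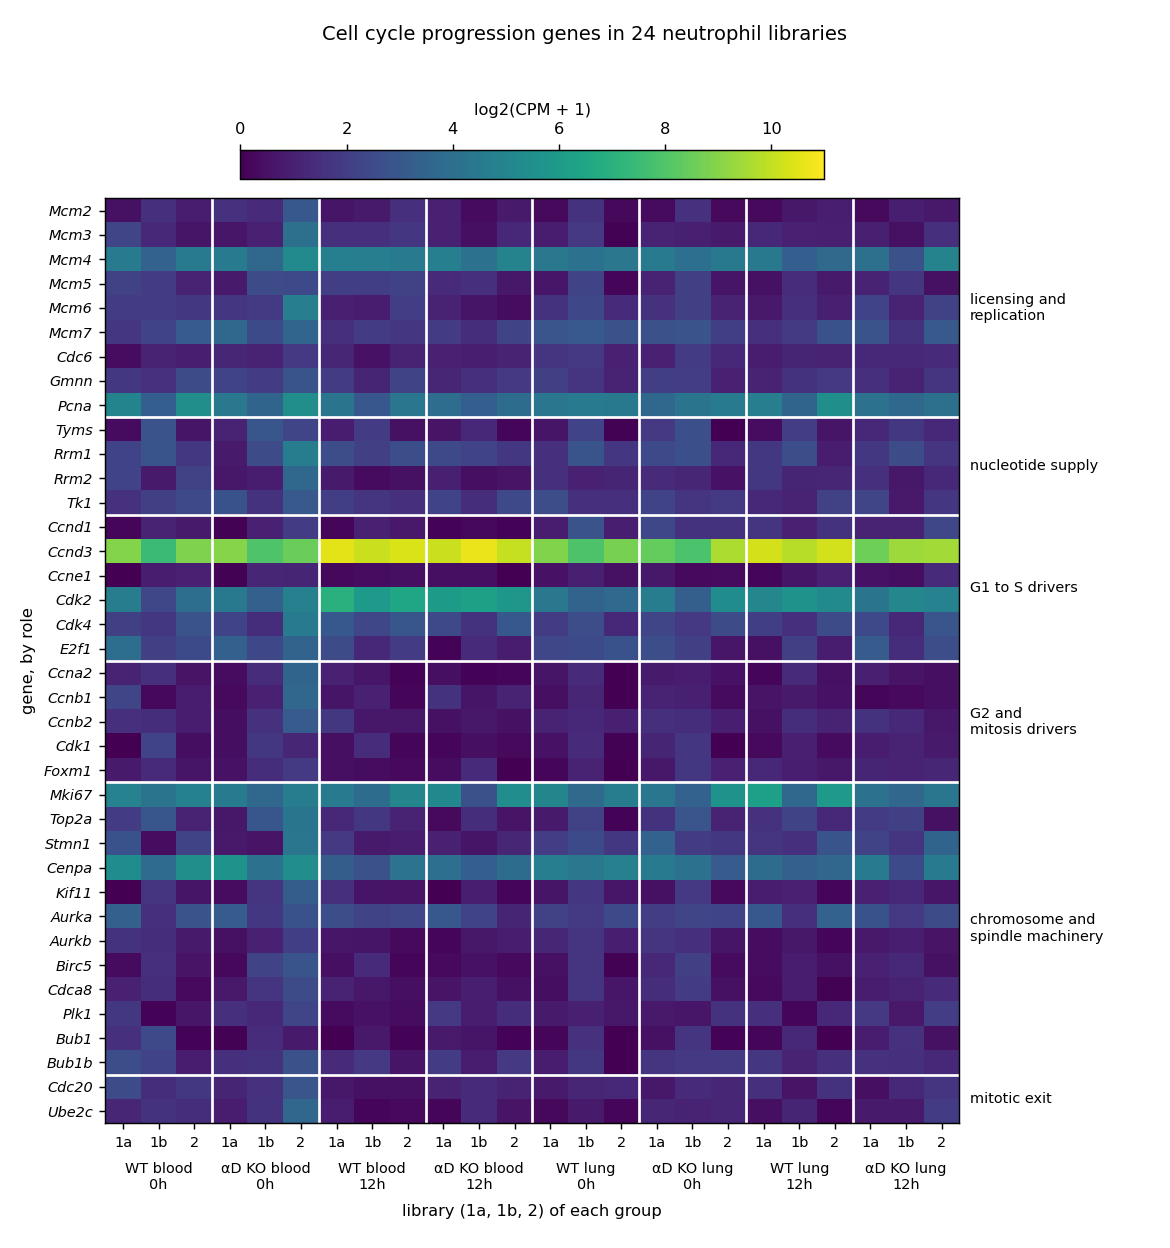
Heat map of log2(CPM + 1) for the 38 members (rows, by role) in the 24 libraries (columns, by genotype, tissue and time). Ccnd3 is the strongest row in every library, and library 2 of αD KO blood at 0h is a bright column across most roles, being the highest library for 23 members.

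Library 2 of αD KO blood at 0h was the highest of all 24 libraries for 23 of the 38 members, whereas no other library was the highest for more than 2. The summed level of the 32 low members was 282.7 CPM there and 35.6 to 87.5 CPM, with a median of 54.3, in the other 23 libraries. Mcm6 was 25.3 CPM against at most 4.17 CPM elsewhere, and Ccna2, which drives S phase and entry into mitosis, 10.7 against at most 1.80 CPM. Ube2c, the ubiquitin-conjugating enzyme of the anaphase-promoting complex, was 11.4 against at most 2.85 CPM, and Rrm1, the large subunit of ribonucleotide reductase, 23.4 against at most 6.20 CPM. The exceptions included Mki67, which was 23.97 CPM there and up to 72.7 CPM elsewhere, Ccnd3, Cdk2, Cdk1 and Bub1. In the same library the summed level of 12 T and NK cell markers was 475 CPM against 9.13 to 38.2 CPM elsewhere, with 12 of 12 markers highest, and that of 10 B cell markers was 1417 CPM against 36.1 to 1214 CPM, with 9 of 10 highest. The summed level of 9 erythroid markers was 9119 CPM there against at most 6541 CPM elsewhere (6 highest there). That of 8 platelet markers was 809 against at most 712 CPM (5 highest). For 12 monocyte and macrophage markers it was 1972 against at most 1574 CPM (5 highest). Of 10 neutrophil markers 0 were highest there. Of the azurophil granule genes, Elane and Mpo were listed at 0 there, Ctsg was 0.185 CPM and Prtn3 2.67 CPM (0.168 to 9.67 CPM over all 24 libraries), Prss57 was 9.86 CPM (0.407 to 13.7 CPM), and Nkg7, which cytotoxic lymphocytes also express, was 114.5 CPM, the highest of all. The part of these other cells in the members' levels was not tested, and values without this library are given beside the main results that it enters.

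The effect of CLP was examined within each genotype and tissue by comparing the 3 libraries at 12h with the 3 at 0h. A gene was called with an adjusted p under 0.05 in edgeR's quasi-likelihood test and an absolute log2 fold change above 1, the adjustment running over all genes tested. In the blood and lung of WT mice and in the blood of αD KO mice, 2 drivers of the G1 to S transition were higher at 12h, Ccnd3 in all 3 comparisons and Cdk2 in both blood comparisons, while Cenpa was lower in all 3. Cdc20 fell in WT blood, and the helicase genes Mcm6 and Mcm7 fell in αD KO blood. The other members that could be tested, among them Rrm1, Rrm2, Mki67 and Top2a, were not called in these 3 comparisons, and no member was called in αD KO lung. With libraries 1a and 2 only, 6 members were called in WT blood (23.1% of all genes), 5 in WT lung (37.2%) and 4 in αD KO blood (11%).

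In WT blood 4 of the 36 members tested were called, 2 higher and 2 lower, where 7.75% of all genes tested were called higher and 5.75% lower. The median log2 fold change was -0.86 over the members tested and -0.15 over all genes tested, and 5 of the 36 members had a positive value. Ccne1 and Cdk1 had too few counts to be tested. DESeq2 tested 25 members and called 5, where it called 22.8% of all genes. Ccnd3 (chr17:47505051-47599691) was 490.4, 179 and 464 CPM in libraries 1a, 1b and 2 at 0h and 1490.2, 1128 and 1334 CPM at 12h, so that the groups did not overlap. Its mean was 378 ± 173 CPM (SD, n = 3 libraries from 2 samples, as in every group) at 0h and 1318 ± 182 CPM at 12h, a log2 fold change of 1.64 (SE 0.40, edgeR adjusted p = 0.0347). Cdk2 (chr10:128697939-128705051) was 23.99, 4.05 and 14.7 CPM at 0h and 127.0, 61.0 and 86.9 CPM at 12h, again without overlap, a log2 fold change of 2.5 (SE 0.54, edgeR adjusted p = 0.0232). Library 1b was the lowest of the 3 for both genes at both times.

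The mitotic members called in WT blood went down. Cdc20 (chr4:118432901-118437352) was 4.75, 1.71 and 2.44 CPM at 0h and 0.642, 0.401 and 0.418 CPM at 12h, with 208 counts against 25 over the 3 libraries, and its log2 fold change was -2.78 (SE 0.70, edgeR adjusted p = 0.0370). Cenpa (chr5:30666777-30674830) was 40.3, 13.4 and 41.8 CPM at 0h and 8.57, 5.67 and 16.98 CPM at 12h, a log2 fold change of -1.81 (SE 0.47, edgeR adjusted p = 0.0421). The Cenpa groups overlapped, as library 1b at 0h was below library 2 at 12h. Of the 13 members with a CHR in a start region 12 were tested in WT blood, and these 2 alone were called. Of all genes tested 5.75% were called lower, and a link to the motif was not tested. A further 3 members reached an unadjusted p under 0.05 without being called. They were Rrm2, the regulated subunit of ribonucleotide reductase (log2 fold change -2.62, SE 0.83, edgeR adjusted p = 0.076), Ube2c (-2.37, SE 0.88, adjusted p = 0.119) and E2f1, the transcription factor of S phase genes (-1.59, SE 0.67, adjusted p = 0.166). Mki67 was 28.3, 17.98 and 27.5 CPM at 0h and 22.7, 13.7 and 31.1 CPM at 12h, which overlapped.

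The calls in WT blood depended on which libraries were used. Leaving out 0h library 1a, 0h library 2, 12h library 1a or 12h library 2 ended all 4 calls, and also took the count over all genes from 1975 to 150, 46, 19 and 2. Without 12h library 1b 2 members were called, both higher, among 1589 genes, and without 0h library 1b 6 were, among 2804 genes. Summed B cell markers were 274 to 1214 CPM at 0h and 43.7 to 243 CPM at 12h in the same comparison. Of them only Ighm was called, lower, with a mean of 687 CPM at 0h and 75.8 CPM at 12h. Platelet markers went from 67.8 to 201 CPM at 0h to 21.7 to 58.6 CPM at 12h. Lung epithelial and endothelial markers were 25.0 to 314 CPM at 0h (median 34.5) and 20.7 to 21.6 CPM at 12h. Of these, Sftpc was called lower (log2 fold change -10.14, SE 2.69, edgeR adjusted p = 0.0448). T and NK cell markers were 23.2 to 38.2 CPM at 0h and 14.6 to 18.2 CPM at 12h. Of the monocyte and macrophage markers 3 of 10 tested were called lower and 1 higher, and of the platelet markers 3 of 8 lower. Summed neutrophil markers were 29603 to 50826 CPM at 0h and 120690 CPM or more at 12h, with 7 of 10 called higher and 1 lower. Their part in the members called was not tested.

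**Figure D2:**
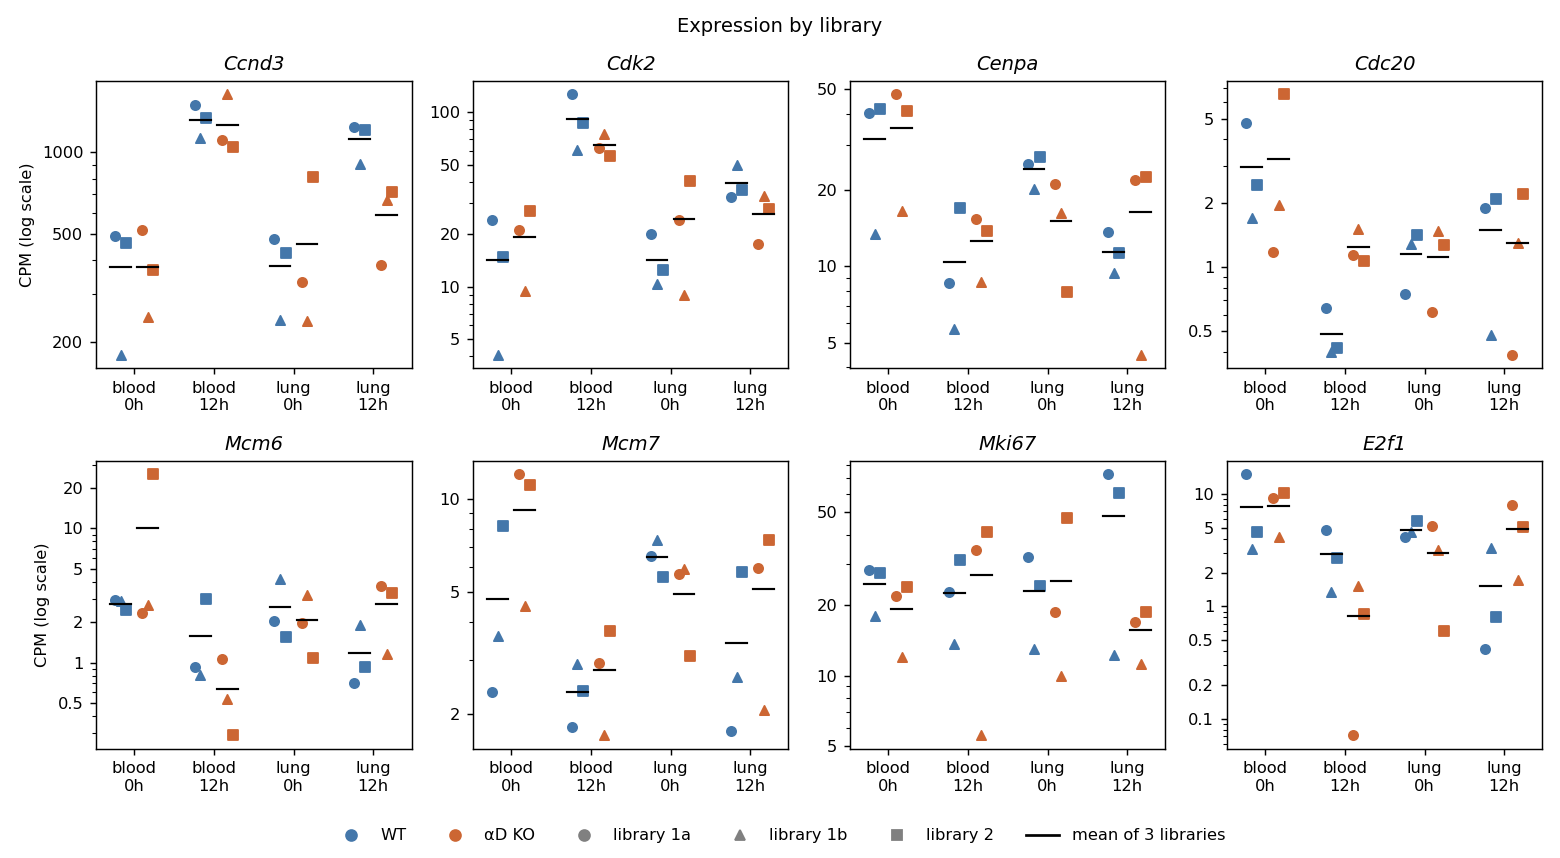
CPM (log axis) of 8 members in each of the 24 libraries, with WT in blue and αD KO in orange, circles for library 1a, triangles for 1b, squares for 2, and a black line at the mean of 3. Ccnd3 and Cdk2 stand higher at 12h in WT blood, WT lung and αD KO blood, Cenpa stands lower there, and the αD KO lung groups overlap.

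In WT lung 2 of the 34 members tested were called, 1 higher and 1 lower, against 5.24% of all genes called higher and 3.78% lower. The median log2 fold change was -0.10 over the members and 0.03 over all genes. Ccnb1, Birc5, Bub1 and Ube2c were not tested for lack of counts. Of 25 members tested, DESeq2 called 3, against 17.6% of all genes. Ccnd3 was 481, 241 and 425 CPM at 0h and 1242, 908 and 1205 CPM at 12h without overlap, with a mean of 382 ± 126 CPM (SD, n = 3 libraries) rising to 1118 ± 183 CPM (log2 fold change 1.52, SE 0.39, edgeR adjusted p = 0.0477). Cenpa was 25.4, 20.2 and 26.9 CPM at 0h and 13.6, 9.45 and 11.3 CPM at 12h, also without overlap (log2 fold change -1.12, SE 0.28, edgeR adjusted p = 0.0466). Cdk2 was 20.05, 10.4 and 12.5 CPM at 0h and 32.8, 49.95 and 35.9 CPM at 12h, and narrowly missed the call (log2 fold change 1.52, SE 0.42, edgeR adjusted p = 0.0599). The kinase gene of the chromosomal passenger complex, Aurkb, was next by p, with 1.28, 2.11 and 0.891 CPM at 0h and 0.282, 0.640 and 0.116 CPM at 12h (log2 fold change -1.97, SE 0.89, edgeR adjusted p = 0.204).

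Mki67 in WT lung showed no common direction, at 32.3, 12.98 and 24.1 CPM at 0h and 72.7, 12.2 and 60.3 CPM at 12h. Libraries 1a and 2 at 12h held the highest Mki67 of the series while library 1b did not. Both calls in WT lung were lost when any library other than 12h library 1b was left out, where the count over all genes went from 1340 to 769 without 0h library 1b, 27 without 12h library 2 and 0 without 0h library 1a, 0h library 2 or 12h library 1a. Leaving out 12h library 1b gave 5 member calls and 3941 over all genes. With a library left out the log2 fold change was 1.29 to 1.75 for Ccnd3 and -1.35 to -1.04 for Cenpa. The summed B cell markers were 433 to 796 CPM at 0h and 36.1 to 85.8 CPM at 12h, and 5 of the 10 were called lower. Of the monocyte and macrophage markers 3 of 9 tested were called lower and 1 higher. The summed neutrophil markers were 38372 to 54869 CPM at 0h and 93448 to 145300 CPM at 12h, with 3 of 10 called higher and 1 lower. Their part in the levels of Ccnd3 and Cenpa was not tested. The summed level of the 32 low members was 35.6 to 87.5 CPM at 0h and 40.7 to 54.3 CPM at 12h, a range that lay within the former.

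In αD KO blood 5 of the 31 members tested were called, 2 higher and 3 lower, against 3.75% of all genes called higher and 4.99% lower. Ccnd1, Ccne1, Ccna2, Ccnb2, Cdk1, Birc5 and Bub1 were not tested for lack of counts. DESeq2 tested 34 and called 9, against 12.3% of all genes. Ccnd3 was 518, 248 and 370.1 CPM at 0h and 1107, 1640.5 and 1048 CPM at 12h, its mean going from 379 ± 135 to 1265 ± 326 CPM (SD, n = 3 libraries from 2 samples; log2 fold change 1.58, SE 0.35, edgeR adjusted p = 0.0334). Cdk2 was 20.99, 9.50 and 27.0 CPM at 0h and 62.7, 75.4 and 55.9 CPM at 12h (log2 fold change 1.60, SE 0.36, edgeR adjusted p = 0.0355). Neither gene overlapped between the times, and here library 1b was the highest of the 3 at 12h for both. Cenpa was 47.8, 16.6 and 40.8 CPM at 0h and 15.3, 8.68 and 13.8 CPM at 12h without overlap (log2 fold change -1.66, SE 0.38, edgeR adjusted p = 0.0363).

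The helicase subunits Mcm6 and Mcm7 were called lower in αD KO blood. Mcm6 (chr1:128331590-128359664) was 2.36, 2.67 and 25.3 CPM at 0h and 1.07, 0.537 and 0.286 CPM at 12h, and its log2 fold change of -4.14 (SE 1.06, edgeR adjusted p = 0.0493) took in the high library 2. Mcm7 (chr5:138164583-138172422) was 12.1, 4.50 and 11.2 CPM at 0h and 2.93, 1.70 and 3.72 CPM at 12h (log2 fold change -1.92, SE 0.50, edgeR adjusted p = 0.0495). E2f1 missed the call at 9.21, 4.15 and 10.2 CPM against 0.0714, 1.52 and 0.857 CPM (log2 fold change -3.40, SE 0.90, edgeR adjusted p = 0.0527). Mcm6 kept its call in 2 of 6 alternatives in the processing and Mcm7 in 2 of 7, and neither kept it when any library was left out, while E2f1 was called in 5 of 7. Of the 7 members with E2F letters in a start region 6 were tested in αD KO blood. Mcm6 and Mcm7 were called lower and Cdk2 higher, where 4.99% of all genes tested were called lower and 3.75% higher. None of these calls was kept without 0h library 2, and a link to the motif was not tested. The start region of E2f1 held none of the motifs.

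Without library 2 of αD KO blood at 0h, no member was called, and the count over all genes went from 1238 to 571. The estimates kept their signs, with Ccnd3 at 1.61 (edgeR adjusted p = 0.107), Cdk2 at 1.96 (adjusted p = 0.0529), Cenpa at -1.49 (adjusted p = 0.113), Mcm7 at -1.72 (adjusted p = 0.129) and Mcm6 at -2.17 (adjusted p = 0.186). Members with an unadjusted p under 0.05 fell in number from 16 to 7, and the median log2 fold change of the members tested moved from -1.65 to -0.52, while that of all genes tested moved from -0.14 to -0.19. Leaving out 0h library 1a, 12h library 1a or 12h library 2 also gave 0 called members, with 74, 260 and 167 genes called in all. Leaving out 0h library 1b kept only Cenpa (edgeR adjusted p = 0.0307) among 682 genes called. Leaving out 12h library 1b, with 1414 genes called, kept only Ccnd3 (edgeR adjusted p = 0.0386) and added E2f1 (log2 fold change -4.25, adjusted p = 0.0422). With the files of sample 1 summed, 2 members were called against 3.84% of all genes, Ccnd3 (1.55, edgeR adjusted p = 0.0447) and E2f1 (-3.53, adjusted p = 0.0316). Cdk2 (1.47, adjusted p = 0.083), Cenpa (-1.61, adjusted p = 0.0518), Mcm6 (-4.56, adjusted p = 0.11) and Mcm7 (-1.81, adjusted p = 0.0952) were not. Summed T and NK cell markers were 18.2, 36.2 and 475 CPM from the lowest to the highest library at 0h and 9.40 to 19.6 CPM at 12h, with 4 of the 9 tested called lower. Summed B cell markers were 328 to 1417 CPM at 0h and 39.1 to 143 CPM at 12h, with 4 of 10 called lower. Platelet markers were 45.7 to 809 CPM at 0h and 15.9 to 82.3 CPM at 12h, with 3 of 8 called lower. Monocyte and macrophage markers were 767 to 1972 and 642 to 787 CPM, with 5 of 11 called lower. Summed neutrophil markers were 35806 to 61768 CPM at 0h and 135100 CPM or more at 12h, with 5 of 10 called higher and 1 lower. Without 0h library 2, 0 of the 4 T and NK cell calls, 1 of the 4 B cell calls, 0 of the 3 platelet calls, 3 of the 5 monocyte and macrophage calls and 1 of the 6 neutrophil calls were kept. The part of these markers in the members called was not tested.

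**Figure D3:**
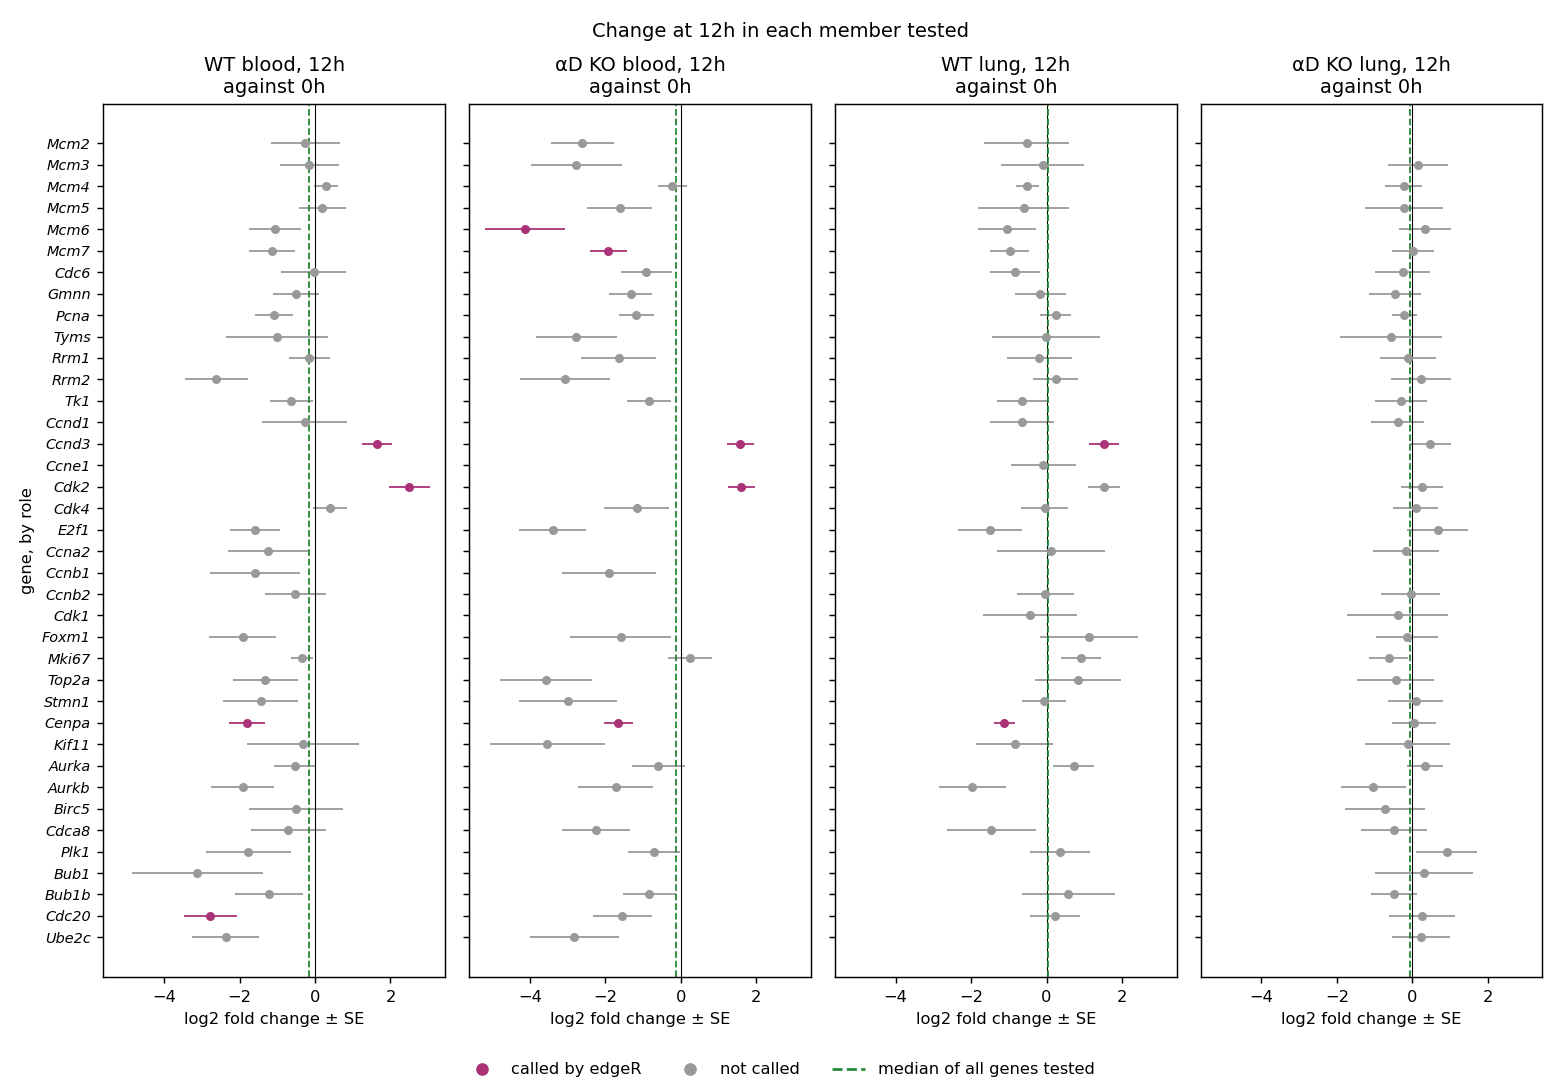
Log2 fold change (12h against 0h) with its SE for each member tested in the 4 comparisons of time, called members in purple and a dashed green line at the median of all genes tested. Ccnd3 and Cdk2 lie to the higher side and Cenpa to the lower side in WT blood, WT lung and αD KO blood, and no member is called in αD KO lung.

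In αD KO lung no member was called of 35 tested (Mcm2, Ccne1 and Ccnb1 were not tested), DESeq2 also called 0, and 0 were under an unadjusted p of 0.05 in edgeR. Over all 17939 genes 0% were called and 72 had an unadjusted p under 0.05, also with 0 called by DESeq2. Ccnd3 was 334, 238 and 809 CPM under the label 0h, and 383, 668 and 713 CPM under the label 12h. The highest value was thus in the library labelled 0h 2 and overlapped with 12h. Cenpa was 21.2, 16.2 and 7.91 CPM under the label 0h, and 22.0, 4.46 and 22.6 CPM under the label 12h. Library 2 labelled 0h and libraries 1a and 2 labelled 12h are those whose Kif23 ran against the labels. Without these 3, 0h libraries 1a and 1b were left against 12h library 1b, all of them files of sample 1 of their group. The log2 fold change was then 1.30 for Ccnd3 and -1.99 for Cenpa. Cenpa was lowest in library 1b in 7 of 8 groups. As the choice rested on a gene that changed with time elsewhere, these values are no independent check of a change with time. By p, Mki67 (18.7, 10.02 and 47.4 against 16.9, 11.3 and 18.8 CPM), Aurkb (2.17, 1.78 and 0.536 against 0.662, 0.893 and 0.514 CPM) and Plk1, the polo-like kinase of mitosis (0.709, 0.593 and 2.01 against 2.54, 0.687 and 3.004 CPM), came first, each with an edgeR adjusted p of 1. An effect called in a group and not called in another is not shown to differ between them, and the interaction tests are given further on.

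Tissues were compared within genotype and time. At 0h no member was called between lung and blood in WT mice (38 tested, 0% of all genes called, 0 members and 406 genes with an unadjusted p under 0.05, 0 of 32 members and 0.317% of all genes called by DESeq2) or in αD KO mice (38 tested, 0% called, 0 members and 553 genes under 0.05, 0 of 35 members and 0.639% of all genes called by DESeq2). The WT members with the smallest p were Ube2c (1.27, 2.07 and 1.68 CPM in blood and 0.188, 0.721 and 0.121 CPM in lung), Cdc20 (0.751, 1.29 and 1.42 CPM in lung) and Cenpa, each with an edgeR adjusted p of 0.999. Ube2c did not overlap between the tissues, and its log2 fold change was -2.36 (SE 1.0). In αD KO mice they were Cenpa (log2 fold change -1.18, SE 0.51), Mcm6 (-2.22, SE 1.03) and Ccna2 (-2.59, SE 1.25), all with an edgeR adjusted p of 1. Ccna2 was 0.294, 1.62 and 10.7 CPM in blood and 0.756, 0.816 and 0.469 CPM in lung, and Mcm6 was 1.99, 3.19 and 1.07 CPM in lung, so that for both the difference lay in library 2 of blood. Without that library the log2 fold changes of Mcm6, Ccna2 and Cenpa were -0.29, -0.53 and -1.10, again with an edgeR adjusted p of 1. Without library 2 of αD KO lung instead, Mcm6 was at -1.72 (SE 1.06) and Ccna2 at -2.16 (SE 1.41), with the same adjusted p. Cenpa was then at -0.73 (SE 0.48).

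At 12h no member was called between lung and blood of WT mice (30 tested, 0.0442% of all genes called), DESeq2 called 0 of 22 members against 7.23% of all genes, and 4 members in edgeR were under an unadjusted p of 0.05. Rrm2 was 0.758, 0.251 and 0.418 CPM in blood and 2.40, 1.201 and 1.28 CPM in lung without overlap (log2 fold change 1.86, SE 0.63, edgeR adjusted p = 0.198). Cdc20 was 0.642, 0.401 and 0.418 CPM in blood and 1.90, 0.480 and 2.09 CPM in lung (log2 fold change 1.58, SE 0.65, edgeR adjusted p = 0.252). Mcm4 went the other way, at 25.7, 25.0 and 22.4 CPM in blood and 20.6, 8.89 and 12.8 CPM in lung (log2 fold change -0.77, SE 0.31, edgeR adjusted p = 0.243), as did Cdk2 (-0.98, SE 0.42, adjusted p = 0.271).

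In αD KO mice at 12h no member was called between lung and blood by edgeR (31 tested, 0.0548% of all genes called), 6 members were under an unadjusted p of 0.05, and DESeq2 called 3 of 37 members against 7.38% of all genes. Those 3 were E2f1 (7.95, 1.72 and 5.10 CPM in lung), Stmn1 and Ccnd1, and libraries 1a and 2 of lung at 12h are among those that ran against their labels. Ccnd1, the D-type cyclin of epithelial and many other cells, was 0.0714, 0.179 and 0.0714 CPM in blood, at or below the level of 3 counts, and 1.05, 1.17 and 4.03 CPM in lung (log2 fold change 4.35, SE 0.92, edgeR adjusted p = 0.092). Stmn1, which encodes the microtubule regulator stathmin, was 0.999, 0.537 and 1.29 CPM in blood and 3.75, 2.20 and 10.5 CPM in lung (log2 fold change 2.67, SE 0.68, edgeR adjusted p = 0.102), and Mcm6 was 3.70, 1.17 and 3.32 CPM in lung (2.23, SE 0.73, adjusted p = 0.142). None of Ccnd1, Stmn1 and Mcm6 overlapped between the tissues. Without libraries 1a and 2 of lung, where the lone library 1b was assumed to vary like the other group, the log2 fold changes were 3.47 for Ccnd1 (SE 1.80, edgeR adjusted p = 0.438), 1.35 for Stmn1 (SE 1.08, adjusted p = 0.534), 1.18 for E2f1 (SE 1.5, adjusted p = 0.678) and 1.0 for Mcm6 (SE 1.40, adjusted p = 0.703), with 0 of 36 members called and 0 of 19737 genes. Lung epithelial and endothelial markers differed in the same comparison, with summed levels of 10.2 to 30.2 CPM in blood and 48.2 to 207 CPM in lung, and Scgb1a1 and Sftpa1 of that list were called higher in lung. Their part in Ccnd1 and Stmn1 was not tested.

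Libraries labelled αD KO were compared with those labelled WT within tissue and time, so that directions here refer to labels that Itgad mRNA ran against. No member was called in any of the 4 comparisons by edgeR or by DESeq2. DESeq2 tested 37 members in blood at 0h (0.0118% of all genes called), 38 in lung at 0h (0.0163%), 21 in blood at 12h (0.121%) and 17 in lung at 12h (1.4%). In edgeR, in blood at 0h, 38 members were tested, 0.0115% of all genes were called and 0 members had an unadjusted p under 0.05. The first by p were Mcm6 (log2 fold change 1.73, SE 0.95), Mki67 (-0.39, SE 0.25) and Mcm7 (0.91, SE 0.59), all with an edgeR adjusted p of 1. WT Mcm6 was 2.90, 2.88 and 2.48 CPM against 2.36, 2.67 and 25.3 CPM in αD KO blood, and without library 2 the log2 fold change of Mcm6 was -0.05. WT Mcm7 was 2.36, 3.60 and 8.21 CPM, which overlapped with αD KO. In lung at 0h 35 were tested, 0% of all genes were called, and 0 members and 340 genes had an unadjusted p under 0.05. Ube2c (0.188, 0.721 and 0.121 CPM in WT and 1.28, 1.11 and 1.27 CPM in αD KO lung), Cdk2 and Cenpa came first, each with an edgeR adjusted p of 0.983. Without library 2 of αD KO lung, Ube2c had a log2 fold change of 1.84 (SE 1.24, edgeR adjusted p = 0.963). Cdk2 was then at 0.27 (SE 0.5) and Cenpa at -0.32 (SE 0.29).

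In blood at 12h 26 members were tested, 0% of all genes were called, and 3 members and 505 genes had an unadjusted p under 0.05. Plk1 was 0.233, 0.452 and 0.278 CPM in WT and 2.498, 0.806 and 1.71 CPM in αD KO blood (log2 fold change 2.25, SE 0.65, edgeR adjusted p = 0.962). Cdc20 was 1.14, 1.52 and 1.07 CPM in αD KO blood, above all 3 WT libraries (log2 fold change 1.37, SE 0.55), and Mcm5 was 3.09, 3.11 and 3.41 CPM in WT and 1.499, 1.79 and 0.643 CPM in αD KO blood (-1.27, SE 0.54), both with the same adjusted p. These values were separate between genotypes at levels of 0.233 to 3.41 CPM, where few counts stand behind each. In lung at 12h 37 were tested, 0% of all genes were called, and 1 member and 1390 genes had an unadjusted p under 0.05. Mki67 was 72.7, 12.2 and 60.3 CPM in WT and 16.9, 11.3 and 18.8 CPM in αD KO lung (log2 fold change -1.37, SE 0.54, edgeR adjusted p = 0.598). E2f1 (0.423, 3.28 and 0.814 against 7.95, 1.72 and 5.10 CPM) and Ccnd3 followed with adjusted p values of 0.658 and 0.662. Libraries 1a and 2 of αD KO lung at 12h are among those that ran against their labels. Without them, library 1b was left alone for αD KO lung at 12h. The log2 fold change was then -1.73 for Mki67, 0.35 for E2f1 and -0.43 for Ccnd3. Mki67 was lowest in library 1b in 8 of 8 groups. In library 1b it was 12.2 CPM in WT and 11.3 CPM in αD KO lung.

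Whether the change with time differed between tissues or genotypes was tested directly, and no member was called in any of the 3 interaction tests. In edgeR 38 members were tested and 0% of all genes called in each, whereas DESeq2 tested 32 members for tissue by time in WT mice (0.657% of all genes called), 38 for genotype by time in blood (0.00232%) and 19 in lung (2.7%). For tissue by time in WT mice, 3 members and 1290 genes had an unadjusted p under 0.05, namely Cdc20 (2.92, SE 1.08, on the log2 scale, positive where lung changed more upwards), Rrm2 (2.68, SE 1.11) and Mcm4 (-0.90, SE 0.41), with an edgeR adjusted p of 0.876. For genotype by time in blood (positive where αD KO changed more upwards), 1 member and 232 genes were under 0.05, and Mcm6 (-3.02, SE 1.28), Ccna2 (-3.29, SE 1.73) and Mcm2 (-2.39, SE 1.30) came first with an edgeR adjusted p of 1. All 3 were highest in library 2 of αD KO blood at 0h, and without it their values were -1.04, -1.06 and -1.48. Then 0 members and 79 genes were under 0.05, and the median over the members tested went from -0.72 to 0.06. For genotype by time in lung, 0 members and 2432 genes were under 0.05, and Cdk2 (-1.21, SE 0.66), E2f1 (2.35, SE 1.29) and Mki67 (-1.49, SE 0.83) came first with edgeR adjusted p values of 0.58 to 0.59. The lung interaction includes the 3 αD KO libraries whose values ran against their labels. Without them 0 members and 105 genes were under 0.05, with -0.32 for Cdk2, 0.42 for E2f1 and -1.11 for Mki67 and an edgeR adjusted p of 1.

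By role, summed levels are given at 0h and then at 12h. The summed CPM of the 6 G1 to S drivers was 190.4 to 533 in WT blood at 0h and 1196 to 1629 at 12h, 268 to 509 and 964 to 1281 in WT lung, and 265 to 552 and 1112 to 1720.0 in αD KO blood, most of it Ccnd3, but 255 to 857 and 415 to 758 in αD KO lung, which overlapped. The 9 licensing and replication genes gave 34.3 to 83.4 and 43.1 to 59.0 CPM in WT blood and 49.8 to 63.5 and 30.6 to 69.6 CPM in WT lung, and 41.1 to 151 and 32.1 to 53.0 CPM in αD KO blood and 48.7 to 54.4 and 26.5 to 62.4 CPM in αD KO lung, all of which overlapped. The 12 genes of the chromosome and spindle machinery gave 55.8 to 99.1 and 33.3 to 56.1 CPM in WT blood, 58.1 to 69.2 and 35.1 to 103 CPM in WT lung, 52.5 to 141 and 25.2 to 65.4 CPM in αD KO blood and 55.0 to 68.5 and 32.8 to 64.8 CPM in αD KO lung, again with overlap in each. The 4 nucleotide genes stayed at 16.2 CPM or less in every library except library 2 of αD KO blood at 0h, where they reached 46.9 CPM. The 5 drivers of mitosis (Ccna2, Ccnb1, Ccnb2, Cdk1 and Foxm1) summed to 0.972 to 8.81 CPM in the other 23 libraries and to 33.9 CPM there. The 2 genes of mitotic exit summed to 3.78 to 6.02 CPM in WT blood at 0h and 0.552 to 1.46 CPM at 12h, but to 0.938 to 2.01 and 1.68 to 2.26 CPM in WT lung, and to 1.98 to 17.9 and 1.28 to 3.04 CPM in αD KO blood and 1.89 to 2.60 and 1.104 to 5.06 CPM in αD KO lung. These sums were not tested, and 3 libraries against 3 could not give an exact two-sided permutation p below 0.1.

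**Figure D4:**
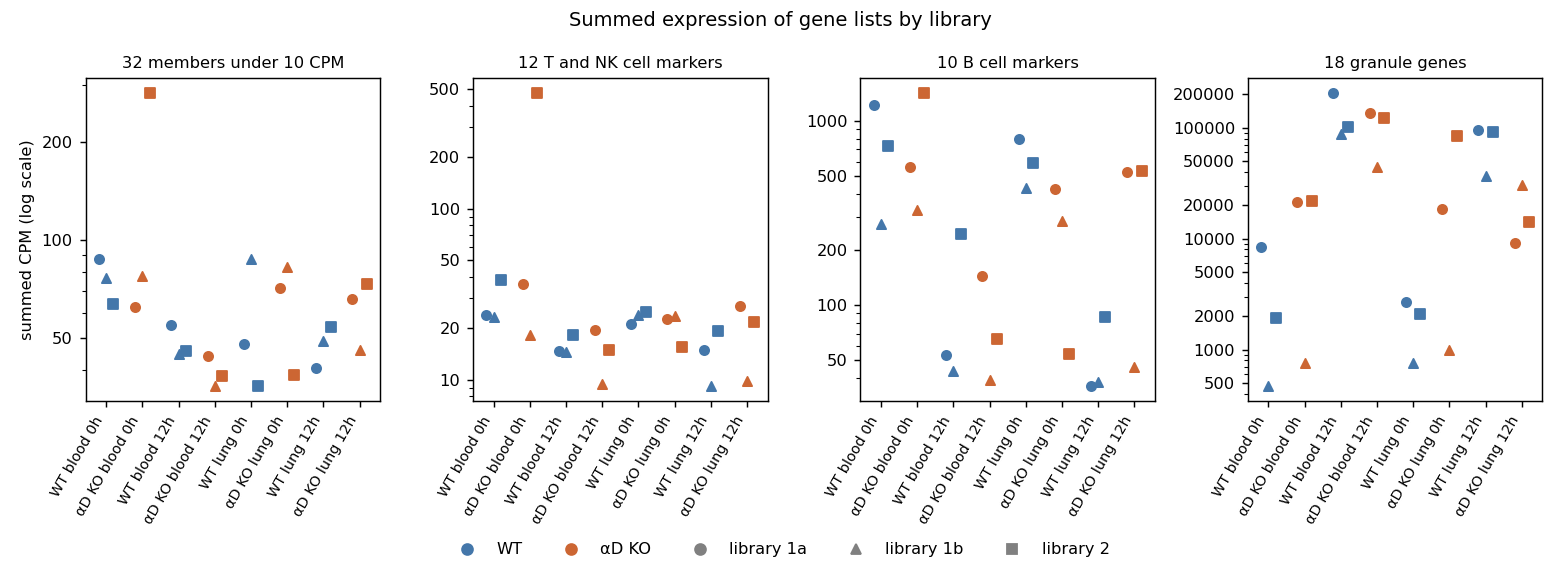
Summed CPM (log axis) in each of the 24 libraries of the 32 members with a median under 10 CPM, 12 T and NK cell markers, 10 B cell markers and 18 precursor granule genes. Library 2 of αD KO blood at 0h is the top point for the low members (282.7 CPM) and for the T and NK cell markers (475 CPM), and the granule genes are higher at 12h than at 0h in WT blood, WT lung and αD KO blood.

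Further genes of the cycle were described in the same comparisons, without a test between lists. Among 52 further genes of G2 and mitosis, 1 of 47 tested was called higher and 4 lower in WT blood, 0 and 2 of 33 in WT lung, and 0 and 3 of 42 in αD KO blood. Kif23 was lower in all 3, from 171, 127 and 188 CPM to 11.2, 6.82 and 22.6 CPM in WT blood (log2 fold change -3.82, SE 0.43, edgeR adjusted p = 0.00306), from 260.2, 233 and 199 CPM to 23.4, 39.5 and 31.6 CPM in WT lung (-2.83, SE 0.43, adjusted p = 0.0108) and from 203, 119 and 105 CPM to 16.6, 18.1 and 23.8 CPM in αD KO blood (-3.08, SE 0.34, adjusted p = 0.00345). It was not raised in library 2 of αD KO blood at 0h, the lowest of its 3. Cdc25b, a phosphatase that activates Cdk1 at the entry into mitosis, was the gene called higher in WT blood, from 7.77, 7.73 and 13.4 CPM to 79.2, 47.5 and 106 CPM (log2 fold change 2.78, SE 0.33, edgeR adjusted p = 0.00366). Pttg1, which encodes securin, was called lower in WT blood (-2.09, SE 0.48, adjusted p = 0.0288) and WT lung (-1.36, SE 0.32, adjusted p = 0.0395). Among 35 further S phase genes, only Pold1, a DNA polymerase subunit, in WT blood (-1.80, SE 0.43, edgeR adjusted p = 0.0316; 30 tested) and Dut, the dUTPase, in αD KO blood (-4.70, SE 1.06, adjusted p = 0.0346; 32 tested) were called, both lower. Without library 2 of αD KO blood at 0h, Dut was no longer called (-3.64, adjusted p = 0.117), and of the 3 lower genes of G2 and mitosis there Kif23 kept its call (-3.19, adjusted p = 0.00978) while Ect2 (-2.27, adjusted p = 0.0741) and Racgap1 (-2.10, adjusted p = 0.142) did not. No gene of either list was called in αD KO lung.

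Of 12 G1 genes outside the members, 3 of 11 tested were called higher in WT blood, 1 of 10 in WT lung and 1 of 11 in αD KO blood, and none was called lower. Ccnc, which encodes cyclin C, was called in all 3 comparisons, in αD KO blood also without 0h library 2 (2.07, edgeR adjusted p = 0.0250). It was 8.71, 21.7 and 12.7 CPM at 0h and 77.7, 45.2 and 69.0 CPM at 12h in WT blood (log2 fold change 1.87, SE 0.43, edgeR adjusted p = 0.0281). Tfdp1, the dimer partner of E2F factors, went from 50.5, 27.9 and 40.8 CPM to 129.6, 137 and 112 CPM in WT blood (1.5, SE 0.30, adjusted p = 0.0180), beside E2f2 (1.2, SE 0.26, adjusted p = 0.0249).

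Genes that brake the cycle were counted as well. Of 26 such genes, 1 of 23 tested was called higher and 3 lower in WT blood, 2 and 0 of 24 in WT lung, 0 and 1 of 21 in αD KO blood, and 0 of 25 in αD KO lung. The antiproliferative gene Btg1 fell from 3094, 1082 and 2505 CPM to 330.1, 244 and 472 CPM in WT blood (log2 fold change -2.86, SE 0.46, edgeR adjusted p = 0.0089) and was also called lower in αD KO blood (-1.81, SE 0.44, adjusted p = 0.0411), and without 0h library 2 its value was again -1.81 (SE 0.53, adjusted p = 0.0998). Its relative Btg2 (-1.72, SE 0.39, adjusted p = 0.0277) and Cdkn1b, which encodes the kinase inhibitor p27 (-1.22, SE 0.29, adjusted p = 0.0330), fell in WT blood, while Lin54, a subunit of the DREAM complex that binds CHR sites, rose there (1.26, SE 0.27, adjusted p = 0.0216). In WT lung, Cdkn2d, an inhibitor of cyclin D kinases, rose from 229, 131 and 165 CPM to 1104, 307 and 964 CPM (2.05, SE 0.45, edgeR adjusted p = 0.0307). Cdkn1a, which encodes the kinase inhibitor p21, was 9.80, 9.79 and 24.1 CPM at 0h and 611, 10.9 and 1229.7 CPM at 12h in WT lung (5.20, SE 1.29, edgeR adjusted p = 0.0442), high in libraries 1a and 2 and within the range of 0h in library 1b. Libraries 1a and 2 were also the WT lung libraries with the most Mki67, which was lowest in library 1b in 8 of 8 groups.

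Genes of neutrophil granules were set beside the members because precursors that divide express those of the azurophil granules. Elane, Mpo and Ctsg, the azurophil proteases and peroxidase, were 0 to 1.11, 0 to 1.97 and 0 to 0.539 CPM over the 24 libraries, so these 3 were at or near 0 in every group at both times. The azurophil protease genes Prtn3 and Prss57 were not, at 0.168 to 9.67 CPM with a median of 1.77 and at 0.407 to 13.7 CPM with a median of 3.52, and both had counts in all 24 libraries. The list of 18 as a whole, which also holds genes of later granules such as Lcn2, Ltf, Camp and Ngp, summed to 464 to 8461 CPM at 0h and 87429 CPM or more at 12h in WT blood, 758 to 2682 and 36781 to 94546 CPM in WT lung, and 759 to 21887 and 44026 CPM or more in αD KO blood. It had 5 of 16 tested called higher in WT blood, 8 of 14 in WT lung, 2 of 14 in αD KO blood, 0 of 16 in αD KO lung and none lower. Without 0h library 2 of αD KO blood, Lcn2 kept its call (3.78, edgeR adjusted p = 0.0365) and Cd63 did not (1.92, adjusted p = 0.0732). In αD KO lung the largest sum, 83486 CPM, was in the library labelled 0h 2, and those labelled 12h 1a and 2 held 9186 and 14251 CPM.

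Some members share exon bases with a neighbour in GENCODE M21, and the strand used in counting was not given in the sources used here. This applied to 14 of the 38. Ccnd3 overlaps Bysl by 361 bases, Cdk2 overlaps Pmel by 34 bases and Cdc20 overlaps Elovl1 by 53 bases, each on the opposite strand. The longest overlaps as a share of a member, also with opposite strands, were those of Ccnd1 with LTO1 (1100 bases, 23.4% of Ccnd1), Ube2c with Tnnc2 (592 bases, 22.8%), Cdk4 with Tspan31 (641 bases, 19.7%) and Ccna2 with Exosc9 (510 bases, 12.5%). LTO1 was at 11.4 to 34.4 CPM where Ccnd1 had a median of 1.02 CPM, and Tnnc2 was at 0.18 CPM or less. Elovl1 was at 57.6 to 246 CPM over the 24 libraries. Mcm7 overlaps Ap4m1 and Cops6 on the opposite strand and holds the microRNA genes Mir25 and Mir93. Reads from these stretches cannot be told apart without strand.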

How the data were processed

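Neutrophil RNA-seq was analysed in 24 libraries of 8 groups. Per the labels and the study's methods, reads of 2x150 paired ends were trimmed with Trimmomatic 0.36 and mapped to the mouse genome (GRCm38, mm10) with STAR 2.5.2b, and the authors deposited the unnormalized counts of uniquely mapped exon reads per gene for each library. Sample 1 of each group came with 2 files (1a and 1b), which differed by more than counting noise (chi-square per degree of freedom 63.5 to 328.5) and were used as separate libraries. Symbols were paired with 48970 of 49315 gene IDs.

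The counts were tested in R 4.3.3 with edgeR 4.0.16 (TMM, filterByExpr, quasi-likelihood F test), 3 libraries against 3 for each comparison, with Benjamini-Hochberg adjustment over all genes tested, calls needing an adjusted p below 0.05 with a log2 fold change beyond 1 in either direction. Interactions were fitted on 4 groups. P-values measure the spread between these libraries only. Alternatives were DESeq2 1.42.0, which is the tool of the study's methods, RLE normalization, no filter on low counts, all 8 groups in a fit, summed files of sample 1, libraries 1a and 2 only, the replicate number as a block, and each library left out. The members and lists were chosen with earlier results of these data known. Values were given for called members. Where none was called, the 3 with the smallest p were named, some of them without every value. From the other lists, values were given for up to 2 called genes in each direction and for the called brakes. Scripts were tested on simulated data. Marker lists of 7 cell types were summed as CPM, and promoters came from the RefSeq table of GRCm38.p6. Same-numbered libraries deviated together (every r above 0.1) in 5 of the 12 comparisons of groups, among them WT blood with time (0.457, 0.588 and 0.114), where the block changed no call.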

Additional observations from a re-analysis of the deposited data

How the results depend on the processing

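No called member changed sign under any alternative, and the direction of Ccnd3, Cdk2, Cenpa, Cdc20, Mcm6 and Mcm7 held wherever they were called, but the number called depended on the processing. In WT blood 12h against 0h, 4 members (13.5% of all genes) became 1 with no filter on low counts (2.25%) and 2 with all 8 groups in the fit (4.12%), and 0 to 6 as each library was left out. In WT lung, 2 (9.02%) became 0 with no filter (3.15%), 0 with all 8 groups (1.65%), 5 with libraries 1a and 2 only (37.2%), and 0 to 5 with a library left out. In αD KO blood, 5 (8.75%) became 13 with no filter (4.05%), 9 with DESeq2 (12.3%), 0 with all 8 groups (0.236%), 2 with the files of sample 1 summed (3.84%), and 0 to 2 with a library left out. Comparisons with no call gained some, namely WT lung against blood at 12h (1 with summed files, 4.47% of all genes, 8 with libraries 1a and 2, 28.2%, and 0 to 4 with a library left out), αD KO lung against blood at 12h (3 with no filter, 3.13%, 3 with DESeq2, 7.38%, 3 with summed files, 8.27%, 9 with libraries 1a and 2, 34.3%, and 0 to 3 with a library left out), αD KO against WT lung at 12h (5 with libraries 1a and 2, 30.1%), WT tissue by time (2, 7.41%) and genotype by time in lung (1, 13.2%), both also with libraries 1a and 2. The cause was not tested. The other 86 of 105 counts were within 1.5 times the main count, and in 7 of the 15 comparisons 0 members were called under all 7 alternatives.

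With the replicate block, WT lung 12h against 0h had 0 members called, among 893 genes called, and αD KO blood had 4 members. In these comparisons libraries 1b (r = 0.422 and 0.376) and libraries 2 (0.351 and 0.269) deviated together. Libraries 1a did not (0.071 and 0.051). No label says that the number pairs animals. In the 5 comparisons where numbers paired, the block changed no member's call. Without the αD KO lung libraries 0h 2, 12h 1a and 12h 2, an alternative added after the data were seen, 0 members were called in each of the 6 comparisons that use αD KO lung. For members of 1 CPM or less a few counts decide the value, so small differences could not be detected at this depth. Over all genes the count called in WT blood moved from 1975 to 944 with no filter, 1118 with all 8 groups and 3201 with libraries 1a and 2, in WT lung from 1340 to 447 with all 8 groups, 893 with the block, 2337 with summed files, 2354 with DESeq2 and 5299 with libraries 1a and 2, and in αD KO blood from 1238 to 64 with all 8 groups, 635 with summed files and 2200 with DESeq2.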

Other observations

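Libraries 1b differed from libraries 1a and 2 in the same members across groups, a pattern seen after the values were examined. Tyms, the thymidylate synthase, and Cdk1 were highest in library 1b in 8 of 8 groups, and Top2a, Birc5 and Bub1 in 7 of 8. Mki67 was lowest in library 1b in 8 of 8 groups, and Mcm4, Cdk4 and Cenpa in 7 of 8. Tyms was 6.02 CPM in library 1b of WT blood at 0h against 0.254 and 0.547 CPM in libraries 1a and 2, and 6.68 CPM against 1.09 and 3.93 CPM in αD KO blood at 0h. The members at or below the mean level of the olfactory receptor genes of the same library were 0 to 25 of 38 in libraries 1b, with a median of 6, and 0 to 8 in the others, with a median of 1. The part of this background in the members' values was not tested.

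Of the G1 to S drivers, Ccnd3 and Cdk2 were called higher at 12h in both blood comparisons. E2f1, in the same role, was 14.95, 3.24 and 4.59 CPM at 0h and 4.78, 1.35 and 2.71 CPM at 12h in WT blood, which overlapped, without a call, and the difference between these members was not tested. The other D-type cyclin among the members, Ccnd1, had a median of 0.217 RPKM over the 24 libraries, where Ccnd3 had 67.6 RPKM.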
